A study of Mus musculus with 31 samples.

Results

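Granzymes, perforin and Nkg7 are components of the cytotoxic granules of killer lymphocytes, and their transcripts were described in cultured mouse thymocytes and in group 2 innate lymphoid cells (ILC2). The 6 genes were granzyme A (Gzma), granzyme B (Gzmb), granzyme C (Gzmc), granzyme K (Gzmk), perforin (Prf1) and Nkg7. They were chosen by name, with earlier results of these data known. Their rows are those of the count tables whose Ensembl IDs carry these symbols in the GENCODE M21 annotation. Each of the 6 had 1 row among the 48881 genes of the tables.

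Granzymes are serine proteases that are stored in acidic granules bound to the proteoglycan serglycin. Perforin, released with them, forms pores in the target cell membrane through which granzymes enter and cut intracellular proteins. Nkg7 is a granule membrane protein that is needed for efficient degranulation. Killer T cells and natural killer (NK) cells are the best known sources, but IL-2 and related cytokines also raise granzyme transcripts in other lymphocytes.

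The study examined how the E protein transcription factors E2A (gene Tcf3) and HEB (gene Tcf12) restrain the formation of ILC2 from T cell precursors. DN1 and DN3 cells, an early and a later stage of CD4-negative CD8-negative thymocytes, were cultured on OP9-DL1 stromal cells, which present the Notch ligand DL1, with the cytokines SCF (stem cell factor), IL-2 and IL-7. Floxed cultures carried R26-CreERT2, R26-stop-tdTomato and E2Af/fHEBf/f, and control cultures carried R26-CreERT2 and R26-stop-tdTomato without the floxed alleles. 4-Hydroxytamoxifen (4-OHT), which activates CreERT2, was added to both genotypes on day 4 of culture, as the design text has it, although the labels of the DN1 day 7 samples name day 7. Libraries of days 5 and 7 came from sorted tdTomato-positive cells, and those of day 4 preceded the treatment. Each of the 12 culture groups (2 precursors, 2 genotypes and 3 days) had 2 libraries. ILC2 were also isolated directly from the thymus (n = 2) and lung (n = 2) of plck-Cre; E2Af/fHEBf/f mice, named dKO in the titles, and from the lung of plck-Id1 mice (n = 3). The plck promoter is active in thymocytes, and Id1 is a protein that binds E proteins and prevents their binding to DNA. For 2 of the Id1 lung libraries the genotype is written plck-Id2 and plck-Id3, and the titles, which give Id1, were followed. All mice were C57BL/6 by label. No age is given in the sources used here, and nothing says whether the replicates were separate animals or cultures, so every p measures only the spread between these samples.

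Total counts were 5908459 to 10692186 per culture library, 4818443 and 5669876 in thymic ILC2, 3695522 and 5627406 in dKO lung ILC2 and 9671437 to 13065445 in Id1 lung ILC2. Levels are CPM, counts scaled to the library total. Log2 changes come from edgeR's quasi-likelihood test, with standard errors and Benjamini-Hochberg adjusted p over all genes tested, and a gene passed at an adjusted p under 0.05. Tcf3 averaged 27.3 CPM in DN1 floxed and 88.1 CPM in DN1 control cultures on day 7, and 23.2 CPM in DN3 floxed against 98.3 CPM in DN3 control cultures. Genotype and sex could not be told apart in the cultures: Xist, expressed in females, lay between 588 and 1900 CPM in floxed libraries and between 4.55 and 71.4 CPM in control libraries. The DN1 floxed day 7 library b stood apart by skeletal muscle transcripts, whose 8 listed genes summed to 7750 CPM there against 61.2 CPM in library a. Day 4 cultures, taken before any tdTomato sort, held 856 to 4560 CPM of 6 stromal marker genes. In bulk samples, fewer cells of a type and less RNA per cell cannot be told apart.

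In the mm10 build, Gzma (ENSMUSG00000023132) occupies chr13:113093825-113100981 on the minus strand, and Gzmk (ENSMUSG00000042385) lies 70.6 kb away at chr13:113171608-113225908, also on the minus strand. Gzmb (ENSMUSG00000015437) occupies chr14:56258838-56262260 on the minus strand, at the edge of a cluster of 15 protease genes that spans 321 kb, and Gzmc (ENSMUSG00000079186) is its nearest neighbour in the cluster at chr14:56231441-56234656, 24.2 kb away. Prf1 (ENSMUSG00000037202) lies at chr10:61297833-61304680 and Nkg7 (ENSMUSG00000004612) at chr7:43437073-43438249, both on the plus strand. Gzmk overlaps the gene Esm1 on the opposite strand, and the sources used here do not say whether the counting used strand. On day 7 Gzmk had 0 counts in all culture libraries, while Esm1 averaged 13.6 CPM in DN1 floxed, 103 CPM in DN1 control, 35.2 CPM in DN3 floxed and 61.4 CPM in DN3 control cultures.

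E proteins bind the E-box, a motif of the general form CANNTG. The windows below cover 250 bases before to 50 bases after the RefSeq start of the pair of granzymes that were abundant in the cultures and of perforin, and they are shown because the cultures compare cells with and without E2A and HEB. They were taken from RefSeq (GRCm38.p6) and are printed 5′ to 3′ on the strand of the gene. Capitals mark the E-box CAGCTG, and also the E-box CAGGTG, which is read as CACCTG on the other strand.
Gzma, chr13:113100932-113101231, minus strand: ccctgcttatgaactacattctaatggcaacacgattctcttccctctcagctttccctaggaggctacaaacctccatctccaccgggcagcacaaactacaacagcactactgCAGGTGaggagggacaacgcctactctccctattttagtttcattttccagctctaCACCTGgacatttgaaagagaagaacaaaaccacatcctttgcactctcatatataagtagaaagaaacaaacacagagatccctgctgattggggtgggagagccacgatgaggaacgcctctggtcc
Gzmb, chr14:56262285-56262584, minus strand: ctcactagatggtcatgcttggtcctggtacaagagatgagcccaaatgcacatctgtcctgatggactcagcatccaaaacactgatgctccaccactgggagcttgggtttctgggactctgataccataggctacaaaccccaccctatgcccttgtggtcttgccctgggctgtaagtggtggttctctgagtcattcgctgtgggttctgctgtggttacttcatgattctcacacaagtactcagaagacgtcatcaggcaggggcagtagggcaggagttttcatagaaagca
Prf1, chr10:61297586-61297885, plus strand: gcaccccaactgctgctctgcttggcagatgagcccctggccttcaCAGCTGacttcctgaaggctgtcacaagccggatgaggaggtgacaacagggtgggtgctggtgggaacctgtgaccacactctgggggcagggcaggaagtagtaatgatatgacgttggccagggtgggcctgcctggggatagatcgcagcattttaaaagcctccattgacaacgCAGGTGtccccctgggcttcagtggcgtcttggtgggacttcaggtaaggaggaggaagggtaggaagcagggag

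All 6 genes had a promoter in the RefSeq table. The motif CAGGTG, on either strand, was present in the windows of Gzma (at 2 positions) and Prf1 (at 1), and in 20.2% of all 32851 promoter windows. CAGCTG, which reads the same on both strands, was present in the window of Prf1 and in 16.3% of all windows. The windows of Gzmb, Nkg7, Gzmc and Gzmk held neither motif, but 2, 2, 1 and 1 matches of the looser CANNTG, which also covers both stricter motifs and occurred in 72.3% of all windows with a mean of 1.39 matches. A match describes these letters only.

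Gzma was the most abundant of the 6 genes in CPM per kb of exon in every culture group, and its response to the floxed genotype had opposite signs in DN1 and DN3 cultures. In DN1 cultures on day 7, Gzma had 640 and 377 CPM in floxed libraries, against 1430 and 1390 CPM in control libraries. Both floxed libraries lay below both controls. Gzma fell by 1.42 ± 0.18 on the log2 scale (edgeR adjusted p = 1.17e-05), in a comparison in which 22.5% of the 15172 tested genes passed. On day 5 the DN1 floxed libraries had 1110 and 1160 CPM and the control libraries 1380 and 1360 CPM, without overlap, but the log2 change of -0.30 ± 0.17 did not pass (adjusted p = 0.393).

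In DN3 cultures Gzma was higher in the floxed genotype from day 5 on. On day 5 it had 1770 and 2160 CPM in floxed libraries, against 732 and 603 CPM in control libraries. On day 7 the values were 4300 and 4840 CPM in floxed libraries and 2340 and 1760 CPM in control libraries. On neither day did the groups overlap. The log2 changes were 1.495 ± 0.18 on day 5 (adjusted p = 1.79e-05, edgeR) and 1.23 ± 0.17 on day 7 (adjusted p = 3.3e-05), where 9.76% and 24.9% of tested genes passed. The genotype difference on day 7 in DN1 minus that in DN3 was -2.64 ± 0.25 for Gzma (adjusted p = 3.08e-06), in a contrast in which 7.79% of tested genes passed.

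Gzmb rose in the floxed cultures of both precursors on day 7, with the largest change among the 4 tested members in each. DN1 floxed libraries had 352 and 414 CPM, against 45.4 and 28.5 CPM in DN1 control libraries. DN3 floxed libraries had 2480 and 3220 CPM, against 195 and 136 CPM in DN3 control libraries. Within each precursor, every floxed library lay far above both controls. The log2 changes were 3.44 ± 0.49 in DN1 (edgeR adjusted p = 5.37e-05) and 4.18 ± 0.49 in DN3 (adjusted p = 4.48e-06). The difference between these responses, DN1 minus DN3, was -0.74 ± 0.63 and did not pass (adjusted p = 0.521), which does not show that they were alike.

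On day 5, the day after 4-OHT, the Gzmb levels of the genotypes differed less than on day 7. On day 5 Gzmb had 41.1 and 44.8 CPM in DN1 floxed libraries, against 21.9 and 29.9 CPM in control libraries. In DN3 it had 38.6 and 67.9 CPM in floxed libraries, against 22 and 29 CPM in control libraries. The floxed libraries were higher without overlap in both, but neither log2 change passed (0.69 ± 0.50, adjusted p = 0.534 in DN1; 1.003 ± 0.49, adjusted p = 0.232 in DN3). Each passed in only 2 of 8 alternatives. These were the fit of the compared groups alone (adjusted p = 0.0436 in DN1 and 0.0299 in DN3) and the fit with low-count genes kept (adjusted p = 6.55e-06 and 2.04e-13). The fit with low-count genes kept also called Gzmb in DN1 on day 4 (edgeR adjusted p = 1.2e-06), where the groups overlapped. The genotype difference of Gzmb was larger on day 7 than on day 5 by 3.17 ± 0.67 in DN3 (adjusted p = 0.00753) and by 2.75 ± 0.69 in DN1 (adjusted p = 0.0489), where 7.20% and 1.63% of tested genes passed. The DN1 value kept its sign but no longer passed when 1 library was left out in 7 of 8 cases, with adjusted p up to 0.222.

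For Gzma the corresponding change of the genotype difference between the days was -1.11 ± 0.24 in DN1 (adjusted p = 0.0244), and it too lost its call in 7 of the 8 cases with 1 library left out, with adjusted p up to 0.117, and in a fit of the compared groups alone (adjusted p = 0.17). In DN3 it was -0.27 ± 0.24 and did not pass (adjusted p = 0.59).

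**Figure D1:**
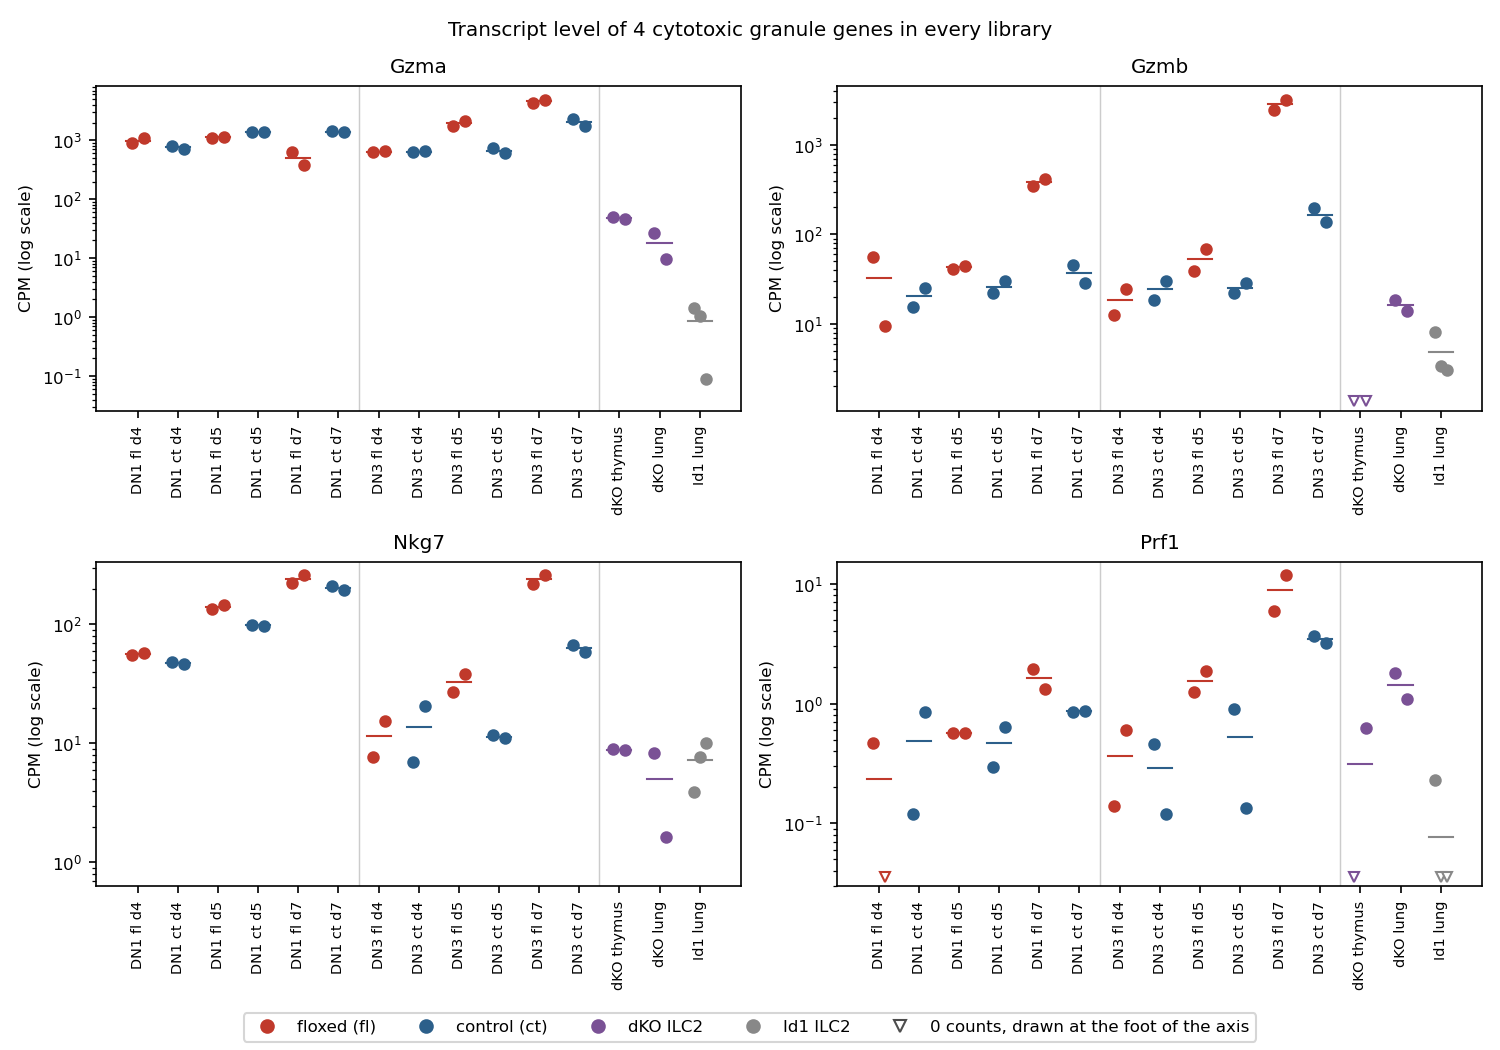
CPM of Gzma, Gzmb, Nkg7 and Prf1 (log scale) in every library, with floxed (red, fl) left of control (blue, ct) at each day (d) of the DN1 and DN3 cultures, and ILC2 at the right; points are libraries, bars are group means, and triangles are libraries with 0 counts. Gzmb stood at 2480 and 3220 CPM in DN3 floxed cultures on day 7 and had 0 counts in both thymic ILC2 libraries.

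The balance of Gzma and Gzmb differed in the floxed libraries of day 7. Per kb of exon, Gzmb accounted for 27.8% and 43.5% of the Gzma plus Gzmb reads in DN1 floxed libraries on day 7, against 1.42% to 2.17% in DN1 control libraries. In DN3 it accounted for 28.8% to 31.8% in floxed and 5.15% to 5.52% in control libraries. Among all other culture groups the share lay between 0.613% and 4.18%. The day 7 floxed libraries of both precursors lay above every other library in this share, although Gzma fell in DN1 and rose in DN3.

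**Figure D2:**
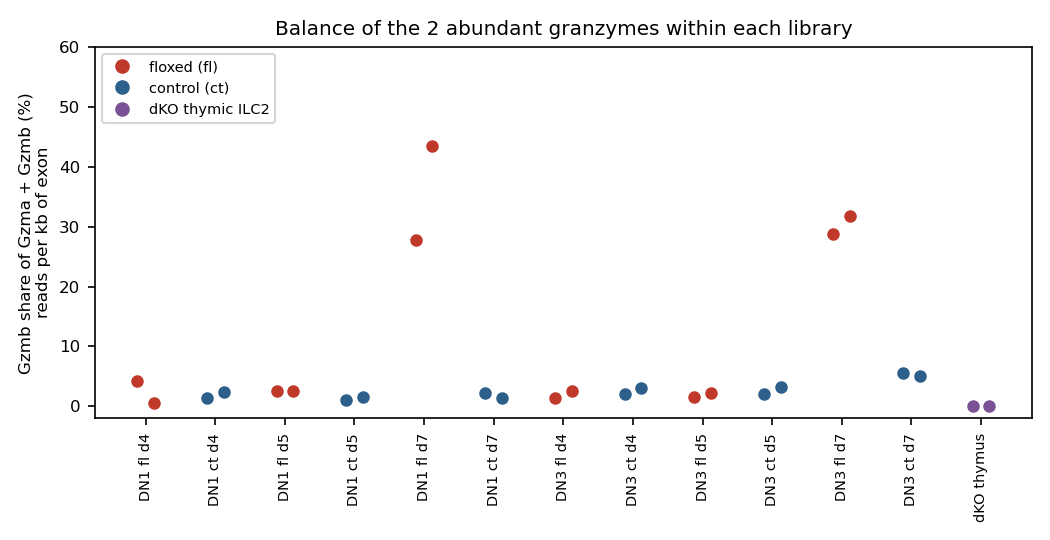
Share of Gzmb in the sum of Gzma and Gzmb reads per kb of exon (percent) in each culture and thymic ILC2 library, with floxed (red) left of control (blue); each point is a library. The 4 floxed libraries of day 7 lay between 27.8% and 43.5%, and all control libraries lay at or below 5.52%.

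The other members of the granzyme family were close to absent from the cultures. Gzmc had 0 counts in 12 of the 24 culture libraries and at most 5 counts (0.624 CPM) in any of them. Gzmk had 0 counts in 19 of the 24 and at most 2 counts. On day 7 Gzmc had 1 count over both DN3 floxed libraries, against 6 over both control libraries, a control to floxed ratio of 4.77 with a 95% counting interval of 0.578 to 219. Neither gene passed the filter on low counts, so neither was tested in the cultures.

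Gzmb stood alone in its cluster. Of the 14 other genes there (6 granzymes, cathepsin G, 5 mast cell proteases and the chymases Cma1 and Cma2), 13 had 0 counts in the DN3 floxed libraries of day 7, and the exception, Gzmc, averaged 0.0677 CPM. In the DN1 floxed libraries of day 7, 10 of the 14 had 0 counts and the highest mean was 0.257 CPM, for Mcpt8. In DN1, Ctsg, a protease of neutrophil and mast cell granules, averaged 0.193 CPM in floxed and 4.98 CPM in control cultures, and its log2 change was -4.50 ± 1.10 (edgeR adjusted p = 0.00789).

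**Figure D3:**
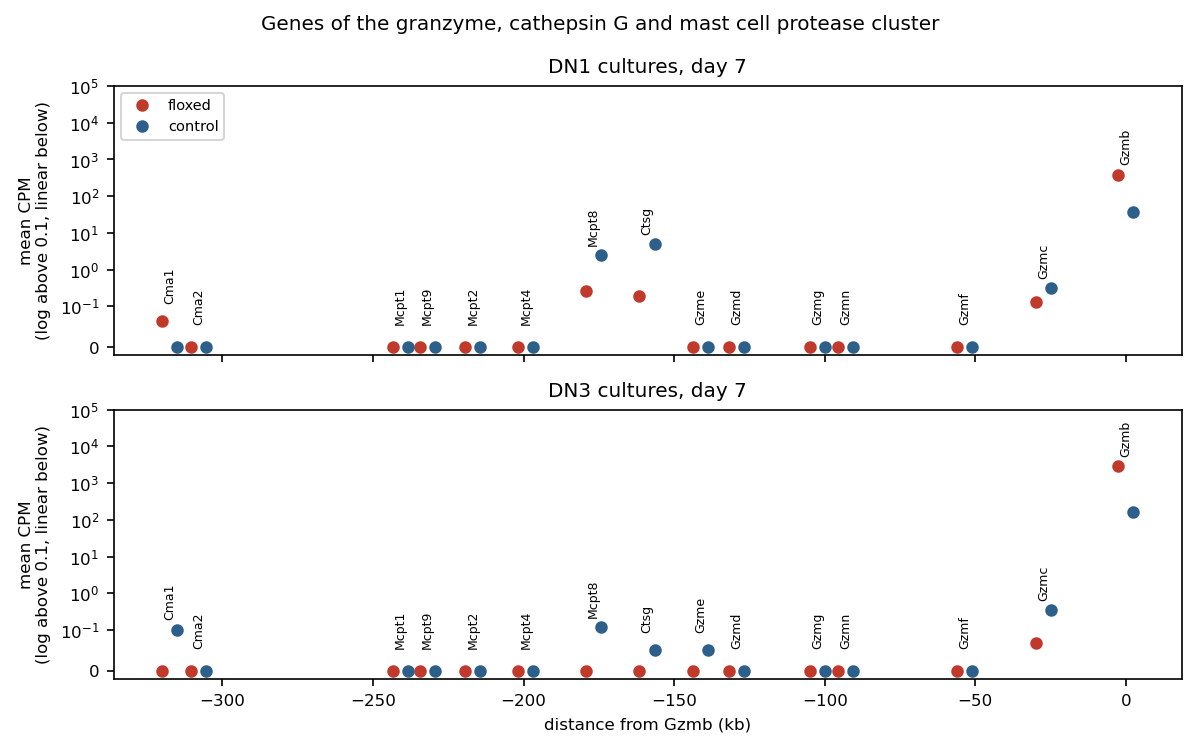
Mean CPM on day 7 (n = 2 libraries each; logarithmic above 0.1, linear below) of the 15 genes of the Gzmb cluster against their distance from Gzmb in kb, floxed in red and control in blue, slightly offset. Gzmb stood at 383 and 2850 CPM in DN1 and DN3 floxed cultures, while the highest other gene in floxed cultures was at 0.257 CPM.

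Prf1 was scarce. In DN3 cultures on day 7 it had 5.92 and 11.9 CPM in floxed libraries (35 and 88 counts), against 3.68 and 3.21 CPM in control libraries (26 and 31 counts). The floxed libraries were higher without overlap, but the log2 change of 1.45 ± 0.58 did not pass (edgeR adjusted p = 0.0779). It passed in only 2 of 8 alternatives, with low-count genes kept (adjusted p = 0.0212) and with only the compared groups fitted (adjusted p = 0.0143). The former setting also called Gzmb in DN1 on day 4, where the groups overlapped. In DN1 on day 7 it had 1.93 and 1.33 CPM in floxed libraries (15 and 10 counts), against 0.849 and 0.874 CPM in control libraries (7 counts each), and the log2 change of 0.97 ± 0.75 did not pass (adjusted p = 0.378). On day 5 it had 1.24 and 1.86 CPM in DN3 floxed libraries (10 and 15 counts), against 0.906 and 0.135 CPM in DN3 control libraries (7 and 1 counts), and the log2 change of 1.47 ± 0.82 did not pass (adjusted p = 0.303). In DN1 on day 5 the change was 0.21 ± 0.99 (adjusted p = 0.961), from at most 5 counts in a library. Per kb of exon, Prf1 averaged 3.45 CPM and Gzmb 1980 CPM in the same DN3 floxed libraries of day 7.

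Nkg7 changed with genotype in DN3 cultures. On day 7 it had 217 and 262 CPM in DN3 floxed libraries, against 67.4 and 59 CPM in control libraries. On day 5 it had 27 and 38.4 CPM in floxed libraries, against 11.8 and 11 CPM in control libraries. The groups did not overlap on either day. The log2 changes were 1.99 ± 0.27 on day 7 (edgeR adjusted p = 2.1e-05) and 1.46 ± 0.31 on day 5 (adjusted p = 0.00558). The day 5 change lost its call without control library d (adjusted p = 0.0632) or floxed library b (adjusted p = 0.104).

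In DN1 cultures Nkg7 was high in both genotypes. On day 7 it had 221 and 259 CPM in floxed libraries, against 212 and 194 CPM in control libraries, and the log2 change of 0.30 ± 0.26 did not pass (edgeR adjusted p = 0.425). On day 5 it had 134 and 145 CPM in floxed and 99.4 and 97.6 CPM in control libraries. The day 5 floxed libraries were higher without overlap, but the change of 0.47 ± 0.26 did not pass (adjusted p = 0.385). It passed in only 2 of 8 alternatives, with low-count genes kept (adjusted p = 0.0228) and with only the compared groups fitted (adjusted p = 0.0179). The former setting also called Gzmb in DN1 on day 4, where the groups overlapped. In the fit of all cultures, 5.02% of tested genes passed in this day 5 comparison. The genotype difference on day 7 was lower in DN1 than in DN3 by a log2 value of -1.69 ± 0.37 (adjusted p = 0.00804), which did not pass without DN3 control library d (adjusted p = 0.0556).

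**Figure D4:**
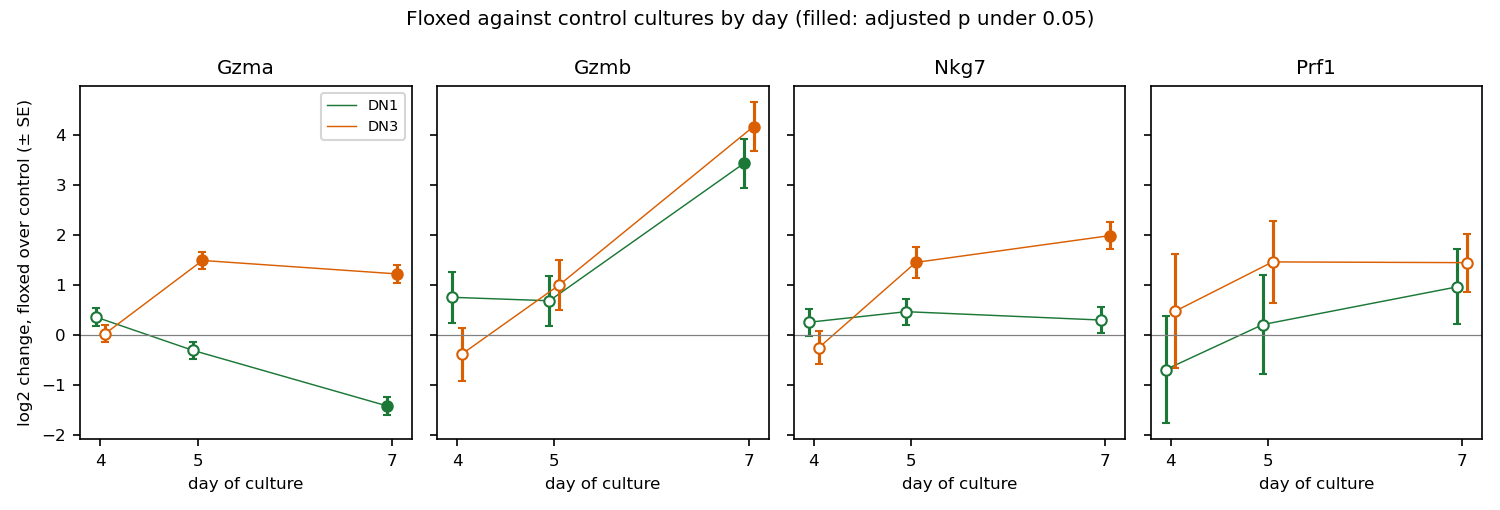
Log2 change of floxed over control cultures (points, ± SE) of Gzma, Gzmb, Nkg7 and Prf1 on days 4, 5 and 7, for DN1 (green) and DN3 (orange), n = 2 libraries per group; filled points had an adjusted p under 0.05. On day 7 Gzma stood at -1.42 in DN1 and 1.23 in DN3, while Gzmb was above 3 in both.

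On day 4, before Cre activation, none of the 4 tested genes passed in either precursor by edgeR, where 0.105% of tested genes passed in DN1 and 0.442% in DN3. At an unadjusted p under 0.05, 728 genes in DN1 and 1243 in DN3 would be counted, Gzma in DN1 among them (log2 change 0.36 ± 0.17, adjusted p = 0.999). Gzma had 904 and 1080 CPM in DN1 floxed libraries and 813 and 725 CPM in DN1 control libraries on that day, without overlap. With low-count genes kept, Gzma and Gzmb passed in DN1 on day 4 (adjusted p = 0.00249 and 1.2e-06). Gzmb differed more within the DN1 floxed group of that day, at 56.3 and 9.51 CPM, than between the genotypes, with control libraries at 15.6 and 25.4 CPM.

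Between days 5 and 7 the granule genes climbed in DN3 cultures of both genotypes. In DN3 floxed cultures the log2 changes of day 7 minus day 5 were 1.30 ± 0.17 for Gzma, 5.82 ± 0.53 for Gzmb, 2.95 ± 0.28 for Nkg7 and 2.60 ± 0.63 for Prf1, with edgeR adjusted p of 0.00463 or less. In DN3 control cultures they were 1.56 ± 0.18 for Gzma, 2.65 ± 0.49 for Gzmb, 2.42 ± 0.31 for Nkg7 and 2.62 ± 0.76 for Prf1, with adjusted p of 0.0193 or less. All 4 tested members rose in both, where 24.5% of tested genes passed in floxed and 20.3% in control cultures. The Prf1 calls were lost without floxed library a of day 5 (adjusted p = 0.0681) or b of day 7 (adjusted p = 0.112), and in controls without library d of day 5 (adjusted p = 0.19), c of day 7 (adjusted p = 0.0889) or d of day 7 (adjusted p = 0.0598).

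In DN1 floxed cultures, Gzmb rose by 3.17 ± 0.49 between these days (edgeR adjusted p = 0.000187), Gzma fell by 1.15 ± 0.17 (adjusted p = 0.000169) and Nkg7 rose by 0.79 ± 0.26 (adjusted p = 0.0355), with 21.5% of tested genes passing. The Gzma call was lost when only the compared groups were fitted (adjusted p = 0.0688). In DN1 control cultures Nkg7 rose by 0.96 ± 0.26 (adjusted p = 0.0202), with 13.1% of tested genes passing, while Gzma, Gzmb and Prf1 did not pass (log2 changes -0.04, 0.42 and 0.76). The Nkg7 call was lost in DN1 control cultures without any 1 of the 4 libraries (adjusted p up to 0.138). In DN1 floxed cultures it was lost with DESeq2 (adjusted p = 0.0918), with only the compared groups fitted (adjusted p = 0.0831) and without floxed library a of day 5, b of day 5 or b of day 7 (adjusted p up to 0.181).

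Set directly against each other on day 7, DN1 floxed cultures had less of 3 genes than DN3 floxed cultures. The log2 differences of DN1 minus DN3 were -3.19 ± 0.19 for Gzma (edgeR adjusted p = 2.57e-09), -2.91 ± 0.46 for Gzmb (adjusted p = 0.000164) and -2.47 ± 0.63 for Prf1 (adjusted p = 0.00855), where 22.0% of tested genes passed. The Prf1 call was lost without DN3 floxed library b (adjusted p = 0.141) and with only the compared groups fitted (adjusted p = 0.0552). For Nkg7 the difference was -0.02 and did not pass (adjusted p = 0.982), as both precursors averaged 240 CPM. Among control cultures of day 7, where 22.6% of tested genes passed, DN1 was lower than DN3 in Gzma by -0.55 ± 0.17 (adjusted p = 0.0255), in Gzmb by -2.17 ± 0.47 (adjusted p = 0.00229) and in Prf1 by -1.99 ± 0.70 (adjusted p = 0.0469). Nkg7 was higher in DN1 control cultures by 1.67 ± 0.27 (adjusted p = 0.000132). The Gzma call in controls was lost without DN1 library c (adjusted p = 0.104), DN1 library d (adjusted p = 0.13) or DN3 library c (adjusted p = 0.317), and the Prf1 call was lost without any 1 of the 4 libraries (adjusted p up to 0.195) and with DESeq2 (adjusted p = 0.0892). These comparisons share libraries with those of the genotypes above.

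The order of the group means in CPM placed DN3 floxed cultures of day 7 first for Gzma, Gzmb and Prf1. For Gzma they were followed by DN3 control cultures of day 7 (mean 2050 CPM) and DN3 floxed cultures of day 5 (mean 1970 CPM), which overlapped, and DN1 floxed cultures of day 7 came last of the 12 culture groups (mean 508 CPM). For Gzmb, the first 3 groups (means of 2850, 383 and 165 CPM in DN3 floxed, DN1 floxed and DN3 control cultures of day 7) did not overlap with one another, and the other 9 culture groups, between 18.4 and 53.2 CPM, overlapped with their neighbours in the order. For Nkg7, DN1 and DN3 floxed cultures of day 7 overlapped and were followed by the DN1 control cultures of day 7 (mean 203 CPM).

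Over the 12 culture group means (log2 of CPM plus 1), Gzmb and Prf1 had the closest patterns among the tested members, with a Pearson r of 0.93, and Gzma and Nkg7 the least alike, with an r of 0.454. Of the 7761 genes compared, those most like Gzmb were Gpr34 (r = 0.97), Cklf (r = 0.969) and Fam102a (r = 0.968). Most like Gzma were Mtmr3 (r = 0.938), Gtpbp2 (r = 0.925) and Cab39 (r = 0.922). Most like Nkg7 were Tes (r = 0.985), Retreg1 (r = 0.984) and Eml2 (r = 0.978), and most like Prf1 were B2m (r = 0.967), Mgarp (r = 0.959) and Cap1 (r = 0.956). The 12 points share stage, culture day and genotype, and these values describe the ranking only.

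Genes of the granule machinery moved in both directions on day 7, when 12.2% of all tested genes rose and 10.3% fell in DN1, and 12.9% rose and 12% fell in DN3. Of 18 genes for the storage, processing and release of granules, 5 rose and 5 fell in DN1, and 9 rose and 2 fell in DN3, with a median log2 change of -0.01 in DN1 and 0.51 in DN3, beside medians of -8.31e-05 and -0.01 over all tested genes. Srgn, which encodes serglycin, averaged 332 CPM in DN1 floxed and 163 CPM in DN1 control cultures (log2 change 1.08 ± 0.21, edgeR adjusted p = 0.000905). In DN3 it averaged 352 CPM in floxed and 64.9 CPM in control cultures (2.51 ± 0.22, adjusted p = 1.6e-07). Ctsl, the lysosomal protease cathepsin L, fell in both, with log2 changes of -1.24 ± 0.29 in DN1 (adjusted p = 0.00391) and -2.94 ± 0.25 in DN3 (adjusted p = 1.4e-07).

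In DN3 the granule genes that rose also included Stx11, a syntaxin needed for granule fusion (2.26 ± 0.48, adjusted p = 0.00151), and Ctsw, cathepsin W (2.03 ± 0.40, adjusted p = 0.000888). In DN1, Rab27a, a small GTPase for granule docking, fell by 0.92 ± 0.25 (edgeR adjusted p = 0.0116), and Igf2r, a receptor that sorts granzymes into granules, fell by 0.90 ± 0.32 (adjusted p = 0.0455).

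Of 4 tested protease inhibitor genes of the serpin family, 2 rose in DN1 (12.2% of all tested genes rose there) and 3 in DN3 (12.9% rose). None passed as lower, and not all 4 are known to inhibit granzymes. Serpinb9, the intracellular inhibitor of granzyme B, averaged 15 CPM in DN1 floxed and 5.36 CPM in DN1 control cultures (log2 change 1.55 ± 0.27, edgeR adjusted p = 0.000352). In DN3 it averaged 22.2 CPM in floxed and 7.2 CPM in control cultures (1.70 ± 0.26, adjusted p = 6.45e-05). Serpinb6b rose in DN3 by 1.71 ± 0.18 (adjusted p = 1.19e-06), and Serpinb6a rose in DN1 by 0.69 ± 0.19 (adjusted p = 0.0142) and in DN3 by 0.56 ± 0.19 (adjusted p = 0.0408).

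Among 15 tested transcription factors tied to cytotoxic genes, 6 rose and 6 fell in DN1, and 9 rose and 3 fell in DN3 (medians -0.22 and 0.71), beside 22.5% and 24.9% of all tested genes that passed in either direction. Tbx21, which encodes the T-bet factor of killer cells, averaged 1.37 CPM in DN1 floxed and 1.36 CPM in DN1 control cultures. In DN3 it averaged 2.66 CPM in floxed and 1.88 CPM in control cultures, and it did not pass in either precursor. In DN1 the largest changes were those of Bach2, a repressor of effector genes (-2.77 ± 0.30, edgeR adjusted p = 2.37e-06), Irf4 (2.44 ± 0.54, adjusted p = 0.0031), the E protein antagonist Id2 (2.34 ± 0.21, adjusted p = 3.01e-07) and Klf2 (2.15 ± 0.34, adjusted p = 0.000132). In DN3 they were those of Klf2 (2.89 ± 0.33, adjusted p = 3.03e-06), Irf4 (2.67 ± 0.47, adjusted p = 0.000296), Prdm1, which encodes Blimp-1 (2.15 ± 0.47, adjusted p = 0.00213), and Nfil3 (1.57 ± 0.32, adjusted p = 0.000997).

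Of 10 receptor genes that act upstream of granzyme expression, 5 rose and 1 fell in DN1, and 5 rose and 2 fell in DN3 (medians 0.80 and 1.03), where 12.2% and 12.9% of all tested genes rose. Il2rb, the signalling chain shared by the IL-2 and IL-15 receptors, averaged 137 CPM in DN1 floxed and 20.4 CPM in DN1 control cultures (2.81 ± 0.38, edgeR adjusted p = 3.04e-05). In DN3 it averaged 445 CPM in floxed and 142 CPM in control cultures (1.71 ± 0.34, adjusted p = 0.00102). The IL-18 receptor genes Il18r1 and Il18rap rose in DN1 by 2.34 ± 0.39 and 1.66 ± 0.41, and Il12rb1 rose there by 1.42 ± 0.28 (adjusted p of 0.00728 or less). In DN3, Il2ra rose by 1.45 ± 0.10 (adjusted p = 1.42e-08), Il2rg rose by 1.23 ± 0.20 (adjusted p = 0.000108), and Il7r fell by 1.53 ± 0.25 (adjusted p = 0.000123).

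**Figure D5:**
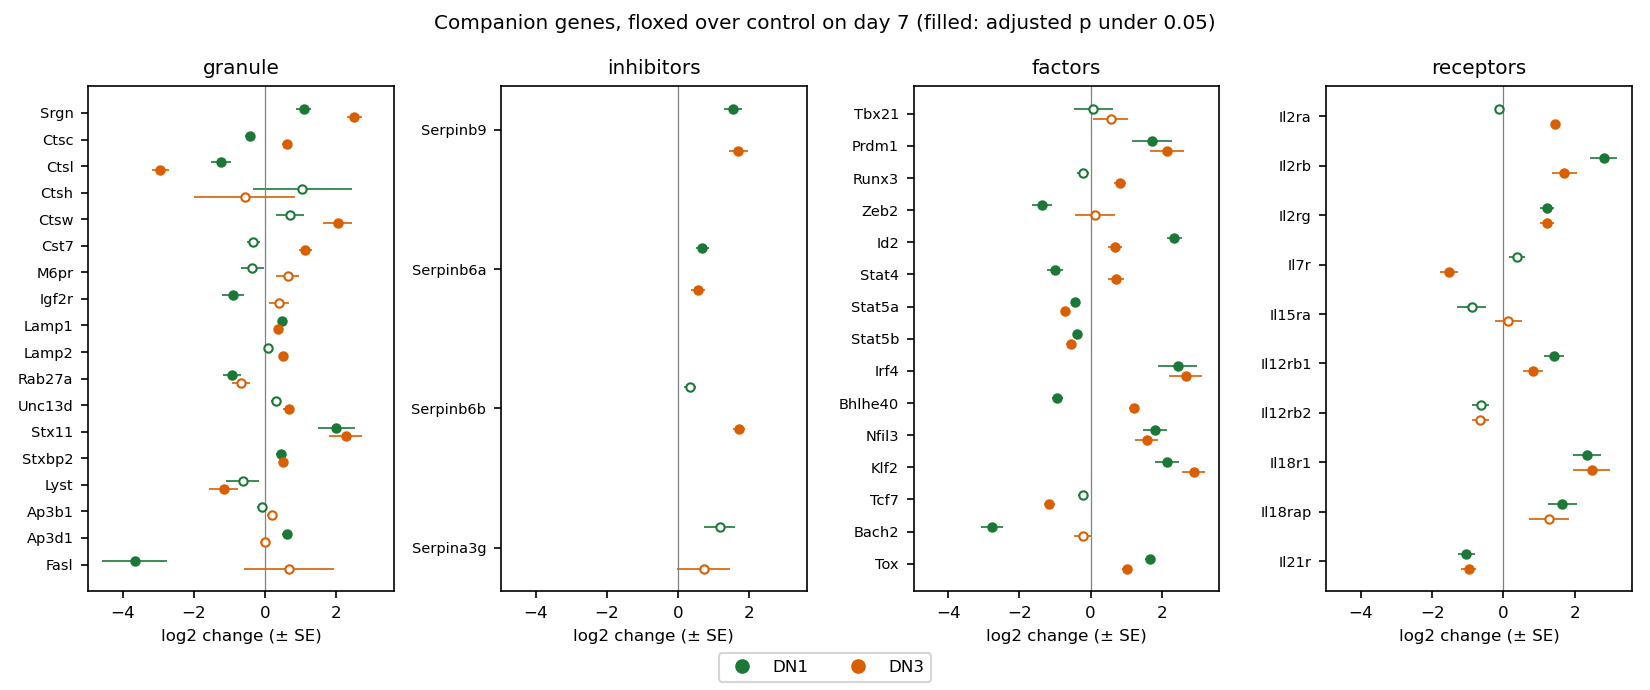
Log2 change of floxed over control cultures on day 7 (points, ± SE; n = 2 libraries per group) for granule genes, serpins (inhibitors), transcription factors and receptors, in DN1 (green) and DN3 (orange); filled points had an adjusted p under 0.05. Srgn, Serpinb9, Klf2, Irf4 and Il2rb lay to the right of 0 in both precursors, and Ctsl to the left in both.

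Markers of other granzyme-bearing cells were measured beside these results. Of 10 NK marker genes, the summed level was 6.95 to 12.4 CPM in DN1 floxed and 2.75 to 3.28 CPM in DN1 control libraries on day 7, and 9.31 to 10 CPM in DN3 floxed against 5.94 to 7.75 CPM in DN3 control libraries. Ncr1, a defining NK receptor, had 0 counts in the floxed libraries of day 7, while Itga2 rose in both precursors (log2 change 3.06 ± 0.92, edgeR adjusted p = 0.0247 in DN1; 4.24 ± 0.94, adjusted p = 0.00276 in DN3) and Klrd1 in DN1 (3.17 ± 1.01, adjusted p = 0.0303). The 8 CD8 and alpha-beta T cell markers summed to 502 to 526 CPM in DN1 floxed and 600 to 618 CPM in DN1 control libraries, and to 738 to 768 CPM in DN3 floxed and 1140 to 1250 CPM in DN3 control libraries. Of these 8, none rose, 3 fell in DN1 and 5 fell in DN3, where 10.3% and 12% of all tested genes fell. Cd8a fell by 4.58 ± 0.56 in DN3 (adjusted p = 1.02e-05).

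Of 7 mast cell markers, the summed level was 337 to 454 CPM in DN1 floxed and 315 to 327 CPM in DN1 control libraries, and 183 to 257 CPM in DN3 floxed and 26.9 to 43.9 CPM in DN3 control libraries, with Fcer1a, Mcpt4, Tpsb2 and Mrgprb1 at 0 in all of these groups. The sum was carried by Kit and Cpa3, which early lymphoid progenitors also express and which rose in DN3 (3.03 ± 0.30 and 2.08 ± 0.24, edgeR adjusted p of 4.55e-06 or less). The 12 ILC2 markers summed to 2680 to 2760 CPM in DN1 floxed and 1620 to 1630 CPM in DN1 control libraries, and to 2920 to 3000 CPM in DN3 floxed and 884 to 1010 CPM in DN3 control libraries. Of 10 tested, 5 rose in DN1 and 6 rose and 1 fell in DN3, where 12.2% and 12.9% of all tested genes rose. The largest member of the sum in each of these groups was Il2ra, which early thymocytes also express, at means of 1130 CPM in DN1 floxed and 1290 CPM in DN1 control cultures, and of 1740 CPM in DN3 floxed and 665 CPM in DN3 control cultures. Rora, Icos and Gata3 averaged 571, 345 and 476 CPM in DN1 floxed and 49.5, 12.3 and 172 CPM in DN1 control cultures. In DN3 they averaged 196, 292 and 646 CPM in floxed and 20.2, 34.8 and 166 CPM in control cultures. Il7r went the other way in DN3, at means of 11.9 CPM in floxed and 36.4 CPM in control cultures. Il1rl1, the IL-33 receptor of ILC2, averaged 0.266 CPM in DN1 floxed and 0.307 CPM in DN1 control cultures, and 0.88 CPM in DN3 floxed and 0.49 CPM in DN3 control cultures. Whether any of these cell populations took part in the granule gene changes was not tested. Without DN1 floxed library b, which held the muscle transcripts, the DN1 log2 changes on day 7 were 3.29 for Gzmb (edgeR adjusted p = 0.00014) and -1.10 for Gzma (adjusted p = 9.57e-05).

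ILC2 isolated from dKO thymus had far less granzyme RNA than the cultures with the same floxed genes. Gzmb had 0 counts in both thymic ILC2 libraries, which allows up to 0.286 CPM over the group. Taking that floor of 3 counts, Gzmb was at least 1340-fold lower than in DN1 floxed cultures of day 7 and at least 10100-fold lower than in DN3 floxed cultures. Gzma had 49.6 and 47.1 CPM in thymic ILC2, against 640 and 377 CPM in DN1 and 4300 and 4840 CPM in DN3 floxed cultures. The log2 differences of Gzma were -2.63 ± 0.20 (edgeR adjusted p = 6.91e-11) and -5.83 ± 0.22 (adjusted p = 5.61e-16).

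Nkg7 had 8.99 and 8.72 CPM in thymic ILC2, and the log2 differences were -4.01 ± 0.33 from DN1 and -4.02 ± 0.33 from DN3 floxed cultures (edgeR adjusted p of 3.44e-10 and 3.43e-10). Prf1 had 0 and 3 counts. It was lower than in DN3 floxed cultures (adjusted p = 0.000472; 3 against 123 counts, a culture to ILC2 ratio of 32.3 with a 95% counting interval of 10.8 to 159), and did not pass against DN1 floxed cultures (adjusted p = 0.158). All 4 tested genes were lower in thymic ILC2 in the DN3 comparison and 3 in the DN1 comparison, but 71.8% and 73.7% of the 16391 tested genes passed there. In thymic ILC2, 57.4% and 62.3% of counts fell in mitochondrial genes and 3 repeat-derived rows, against 2.02% to 3.55% in the cultures. Counted outside these rows, Gzma stood at 131 and 111 CPM and Nkg7 at 23.8 and 20.5 CPM in thymic ILC2. Outside them the floor of 3 counts was 0.715 CPM, and Gzmb was at least 549-fold lower than in DN1 and at least 4140-fold lower than in DN3 floxed cultures. The culture to ILC2 ratio of Prf1 against DN3 was then 13.3 (95% counting interval 4.43 to 65.2). The ILC2 receptor Il1rl1 averaged 264 CPM in these libraries. Gata3 averaged 112 CPM, below the 476 and 646 CPM of DN1 and DN3 floxed cultures of day 7. These and the following marker levels are CPM of all counts. The large share of mitochondrial and repeat rows in thymic ILC2 makes them lower there than when counted outside those rows. Il5, Il13, Areg, Klrg1 and Arg1 averaged 0.104, 0.0882, 0.399, 2.07 and 4.33 CPM. Of 10 tested ILC2 markers, 5 were higher and 2 lower than in DN1, and 6 higher and 3 lower than in DN3. In these comparisons 33.6% and 33% of all tested genes were higher. The 8 CD8 and alpha-beta T cell markers summed to 929 to 959 CPM in thymic ILC2, against 502 to 768 CPM in those cultures. In thymic ILC2 this sum came from Trbc1, Themis, Cd3e and Cd3g (means of 428, 284, 177 and 51.4 CPM). Cd8a, Cd8b1, Trac and Cd5 averaged 0.176, 1.02, 0.929 and 1.53 CPM. Of the 8 markers, 4 were higher and 0 lower than in DN1, and 4 higher and 3 lower than in DN3. Sex-linked transcripts differed too: Xist stood at 0.176 and 0.208 CPM in thymic ILC2, against 1280 to 1880 CPM in floxed cultures of day 7, and 4 Y-linked genes summed to 298 and 362 CPM in thymic ILC2, against 0.508 to 2.53 CPM. The thymic ILC2 thus differ from the cultures in Cre driver, in cell type, in sex and in not having been cultured, and these cannot be told apart.

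Among lung ILC2, Gzma and Gzmk were higher in dKO than in Id1 mice, at low levels. Gzma had 27 and 9.74 CPM in dKO libraries (152 and 36 counts), against 1.45, 1.03 and 0.0888 CPM in Id1 libraries (19, 10 and 1 counts), without overlap. The log2 difference was 4.31 ± 1.09 (edgeR adjusted p = 0.0283), among 18.1% of 19371 tested genes that passed, and it did not pass without dKO library 1 (adjusted p = 0.0923) or 3 (adjusted p = 0.0737). Gzmk had 24 and 5 counts in dKO libraries, against 0, 0 and 1 in Id1 libraries, a ratio of 106 with a 95% counting interval of 17.5 to 4320. Its adjusted p was 0.0298, and it did not pass with low-count genes kept (adjusted p = 0.101), without dKO library 3 (adjusted p = 0.128) or without Id1 library 1 (adjusted p = 0.0698).

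Gzmb had 18.7 and 14.1 CPM in dKO lung libraries, against 8.11, 3.41 and 3.02 CPM in Id1 libraries. The groups did not overlap, but the log2 difference of 1.82 ± 0.73 did not pass by edgeR (adjusted p = 0.109). Of 10 alternatives, only 1 called it, DESeq2 (adjusted p = 0.031). Prf1 had 10 and 4 counts in dKO libraries, against 3, 0 and 0 in Id1 libraries, and did not pass (adjusted p = 0.104). Gzmc had 6 and 0 counts in dKO libraries and 0 in all Id1 libraries, at least 7.29-fold higher over the group, and was not tested. Nkg7 had 8.35 and 1.62 CPM in dKO libraries, against 3.9, 7.75 and 10 CPM in Id1 libraries, which overlapped, and its log2 difference of -0.62 did not pass (adjusted p = 0.704).

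Among the companion lists in the lung, set beside 14.4% of all tested genes that were higher in dKO and 3.66% that were lower, few genes passed. Of the 18 granule genes, 17 did not pass and Rab27a fell (-2.14 ± 0.62, edgeR adjusted p = 0.0395), and none of the 4 tested serpins passed. Of the 10 receptor genes, Il2rb and Il2rg were lower in dKO lung ILC2 (-1.68 ± 0.43 and -1.78 ± 0.40, adjusted p of 0.0285 or less), as were Id2 and Bhlhe40 (-1.51 ± 0.46 and -1.31 ± 0.37, adjusted p of 0.0454 or less) of the 16 transcription factors. With 3 residual degrees of freedom and a biological coefficient of variation of 0.706, a p that misses the threshold does not show that a gene was alike in the lung groups.

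Marker genes of several cell types differed between the lung groups, where 14.4% of all tested genes were higher in dKO and 3.66% lower. The 10 NK markers summed to 82.1 to 150 CPM in dKO and 13.5 to 50.4 CPM in Id1 libraries, and of 9 tested, 4 were higher in dKO, none lower. Ncr1, at 5.86 and 0.541 CPM in dKO and 1.22, 0.517 and 0.444 CPM in Id1 libraries, was not at 0. The CD8 genes Cd8a and Cd8b1 were also higher in dKO (6.51 ± 1.60 and 4.37 ± 1.33, edgeR adjusted p of 0.0461 or less). The 7 mast cell markers summed to 41.9 and 48.7 CPM in dKO and 301 to 548 CPM in Id1 libraries, and both tested, Kit and Cpa3, were lower in dKO. These genes, which are not particular to mast cells, carried the sum (means of 35.6 and 4.97 CPM in dKO, 437 and 28.6 CPM in Id1). Fcer1a, Cma1, Tpsb2 and Mcpt4 went the other way, at 2.14, 1.07, 0.812 and 0.715 CPM in dKO. In Id1 libraries Fcer1a averaged 0.0296 CPM and the others 0, and Mrgprb1 was at 0 in both groups. Of the 12 ILC2 markers, which summed to 2700 and 6640 CPM in dKO and 5280 to 8310 CPM in Id1 libraries, 1 was higher and 3 were lower in dKO. The 6 stromal markers summed to 50.1 and 58.2 CPM in dKO and 0.533 to 9.41 CPM in Id1 libraries (2 of 5 tested higher in dKO). The 5 plasmacytoid dendritic cell markers summed to 409 and 756 CPM in dKO and 129 to 272 CPM in Id1 libraries (2 of 4 tested higher). That sum was carried by Ccr9, at means of 575 CPM in dKO and 190 CPM in Id1 libraries. Siglech, Irf8 and Ly6d averaged 4.34, 1.6 and 1.22 CPM in dKO and 0.102, 0.641 and 0 CPM in Id1 libraries. Bst2 had the lower mean in dKO, 0.448 against 2.65 CPM. The dKO libraries had 29734 to 30196 detected genes, against 22504 to 24722 in Id1 libraries, and dKO library 3 had 46.5% of its counts in the 3 repeat-derived rows. The part of these differences in the granzyme values was not tested.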

How the data were processed

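The deposited values are raw counts of reads per Ensembl gene and library, in a table of 26 thymus libraries and a table of 5 lung libraries. The submitters' processing notes name mm10 and DESeq2, without versions. For the aligner, the counting program and its strand setting, nothing is stated in the sources used here. Per the labels, RNA was extracted with Trizol and libraries followed Illumina protocols. Names, positions and exon lengths came from GENCODE M21.

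Members and companion lists were chosen with earlier results of these data known. Comparisons used edgeR 4.0.16 in R 4.3.3 (TMM, glmQLFit and glmQLFTest, filterByExpr with a minimum count of 10). The 24 cultures were fitted together (15172 genes; 12 residual degrees of freedom), as were all 26 thymus-table libraries (16391 genes) and the 5 lung libraries (19371 genes; 3 residual degrees of freedom). The common biological coefficient of variation was 0.138, 0.151 and 0.706. The filter kept Gzma, Gzmb, Prf1 and Nkg7 in the first pair of fits and all members but Gzmc in the lung. The script was tested on simulated data, where it recovered changes in the thymus-table fits and none in the lung fit. A group with 0 counts was set to a floor of 3 counts. Floors and 95% exact intervals cover counting error only, and reads are not independent molecules.

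Companion genes were named by rule: per list and comparison, at most 4 that passed, by size of change, with a mean of at least 10 CPM in the higher group. Tbx21, Ncr1, Ctsg, the genes given by marker name, Il1rl1, Gata3, Il5, Il13, Areg, Klrg1 and Arg1 were named outside it, after their values were seen. Like genes had a mean of at least 20 CPM in 1 group. Alternatives were RLE factors, DESeq2 1.42.0, no low-count filter, a fit of the compared groups alone, leaving out each library, a replicate block and, added after seeing the data, the ILC2 tables without mitochondrial and repeat rows. Libraries of 1 group differed beyond counting noise, so none was treated as 1 library deposited more than once. Lymph node samples were not analysed here. Comparisons with thymic ILC2 were made within the thymus table, and no test was made across the tables.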

Additional observations from a re-analysis of the deposited data

Results flagged for a closer look

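Some effects of the floxed genotype differed between precursors or between days by a test of the difference itself (edgeR, n = 2 libraries per group). On day 7 the floxed minus control difference in DN1 minus that in DN3 was -2.64 for Gzma (adjusted p = 3.08e-06): both DN1 floxed libraries lay below both DN1 controls, and both DN3 floxed libraries lay above both DN3 controls. The same contrast was -1.69 for Nkg7 (adjusted p = 0.00804).

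Between day 7 and day 5 the floxed minus control difference of Gzmb grew by 3.17 in DN3 (adjusted p = 0.00753) and by 2.75 in DN1 (adjusted p = 0.0489), while that of Gzma in DN1 changed by -1.11 (adjusted p = 0.0244). The DN1 values are those that lost their calls when most single libraries were left out.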

How the results depend on the processing

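No called value of the 6 genes changed sign under any alternative: 315 values stayed past the threshold and 50 did not. The changes of Gzma and Gzmb on day 7 in both precursors and the lower Gzma, Gzmb and Nkg7 of thymic ILC2 passed under every alternative run. Values that changed sign were uncalled ones. With RLE factors, Prf1 stood at 0.0072 in the DN3 genotype difference of day 7 minus day 5, and with no low-count filter, Gzma stood at 0.0017 in DN1 controls of day 7 minus day 5. With single libraries left out, the day 4 genotype differences ranged from -1.11 to 1.47 for Gzmb and -4.86 to 1.13 for Prf1 in DN1, and from -0.0056 to 0.080 for Gzma, -0.94 to 0.011 for Gzmb, -0.86 to 0.74 for Nkg7 and -0.87 to 1.58 for Prf1 in DN3. Prf1 ranged from -0.19 to 0.86 in DN1 on day 5, from -1.85 to 0.76 in the DN3 genotype difference of day 7 minus day 5 and from -0.90 to 0.13 in the day 7 difference of DN1 minus DN3. Nkg7 ranged from -0.16 to 0.13 in floxed cultures of day 7, DN1 minus DN3, and from -1.84 to 0.027 in the lung. The causes were not tested.

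Counts of genes called moved by over 1.5 times in several settings. Without the low-count filter they were 229 in DN1 and 257 in DN3 on day 4, 922 for the DN1 genotype difference of day 7 minus day 5 and 1900 for the day 7 genotype difference of DN1 minus DN3 (16, 67, 247 and 1182 as reported). DESeq2 called 45 genes in DN1 on day 4, 416 for the DN1 genotype difference of day 7 minus day 5 and 6396 in the lung (3499 as reported). Fits of the compared groups alone called 38 genes in DN1 on day 4, 798 in DN1 on day 7, 22 for the DN1 genotype difference of day 7 minus day 5, 369 for the day 7 genotype difference of DN1 minus DN3, 133 in DN1 floxed and 4261 in DN1 control cultures of day 7 minus day 5, and 587 in floxed cultures of day 7, DN1 minus DN3.

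With single libraries left out, genotype counts ranged from 8 to 38 (day 4), 225 to 685 (day 5) and 1688 to 5803 (day 7) in DN1, and from 30 to 41, 449 to 1203 and 2149 to 2878 in DN3. The extremes of DN1 on day 7 came without floxed library b (1688) and without floxed library a (5803). Day 7 minus day 5 gave 1458 to 5458 in DN1 floxed, 703 to 1025 in DN1 control, 2149 to 3058 in DN3 floxed and 1535 to 1990 in DN3 control cultures, with 64 to 2315 and 404 to 887 for the genotype differences of DN1 and DN3. DN1 minus DN3 on day 7 gave 1806 to 5172 in floxed and 2040 to 2275 in control cultures and 497 to 3150 for the genotype difference. The lung gave 183 without dKO library 3 to 5774 without dKO library 1.

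Deviations of same-letter libraries of different days correlated by 0.223 to 0.285 for the DN3 floxed letters and by -0.22 to 0.175 for the others, so not every pair exceeded 0.1 and the letters were not taken as pairing. With the letter as a replicate block, the counts were 259 and 1033 for the DN1 and DN3 genotype differences of day 7 minus day 5, and 3159 in the lung, all within 1.5 times, and 2 calls of members were lost: Gzmb in the DN1 difference of day 7 minus day 5 (2.76, adjusted p = 0.0549) and Gzmk in the lung (5.70, adjusted p = 0.114). At the depth of these libraries, Prf1, Gzmc and Gzmk rest on few counts.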
